A study of Mus musculus with 24 samples.

Results

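Wild-type (WT) mouse testis was compared between postnatal days 24 and 22, over 6 of the 24 RNA libraries of the series. The 2 libraries labelled as WT testis of day 24 were set against the 4 labelled as WT testis of day 22, and each of the 24456 genes listed per library was considered. The series follows whole testes of WT mice and of mice homozygous for an *Atad2* knockout allele (KO) on days 20, 22, 24 and 26, and asks how the loss of the chromatin factor ATAD2 alters post-meiotic transcription. No engineered allele is stated for the WT animals. The KO allele, a *lacZ* insertion combined with removal of an *Atad2* exon, enters here only where the same interval was fitted in 4 KO libraries of day 22 and 2 of day 24. Each value comes from a whole organ, so fewer cells of a type and less RNA per cell cannot be told apart, and the study calls the libraries of a group biological replicates, without saying in the sources used here that each came from a separate animal, so p-values measure the spread between these libraries.

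In the juvenile testis the first wave of spermatogenesis moves forward nearly in step. Spermatocytes complete meiosis, and the haploid round spermatids they leave behind build an acrosome, a cap of enzymes and zona-binding proteins over the nucleus, and begin to lay down a flagellum. Elongating spermatids then replace their histones by transition proteins and by protamines, small basic proteins that compact the sperm genome. Many of these genes are transcribed in round spermatids through promoters that respond to the transcription factor CREM, and their mRNAs are stored before they are translated.

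The 6 libraries held between 11755730 and 19491935 counts assigned to genes, and between 18649 and 19368 genes were detected in each. Levels are given as CPM, counts scaled to the size and composition of each library, and 3 counts in a day 22 library correspond on average to 0.198 CPM. Along the first principal component of the 6 libraries, which held 55.9% of their variance, the 4 libraries of day 22 lay apart from the 2 of day 24. The second component held 24.1% and set WT_d22_4 and WT_d24_2 apart from WT_d22_1 and WT_d24_1. WT_d22_4 and WT_d24_2 were also the libraries with a high level of *Crisp1*, a secretory gene of the epididymis, at 520.0 and 636.6 CPM against 0 to 13.4 CPM in the other 4. The defining genes of testis were present in all 6 libraries, with *Sycp3* of the meiotic chromosome axis between 214 and 322 CPM and *Sox9* of Sertoli cells between 58.4 and 82.8 CPM.

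Between day 22 and day 24 nearly all genes that passed the test in WT testis were higher at day 24, genes of spermatids among them. Of the 17170 genes tested, 1017 (5.92%) passed an adjusted p of 0.05 and are referred to as called. In 1010 of them (5.88% of the genes tested) the level was higher at day 24, and in 7 (0.0408%) it was lower. The number lower was 93 in a fit of the 6 libraries alone, 43 without WT_d20_2, whose day shares the estimate of spread, and 34 with the replicate number as a block. It was 3 at a minimum count of 50, 2 without WT_d22_2, WT_d22_3, WT_d22_4 or WT_d24_2, and 0 without WT_d24_1. The median log2 fold change was 0.00 over all genes tested and 2.23 over the 1010 that rose, and 598 of the latter rose by more than 2 on the log2 scale. In 1002 of the 1010 both day 24 libraries lay above every day 22 library, an order that choosing the genes on these libraries favours. Over all genes tested that order held for 18.3%, and the reverse order for 13.1%. The genes that rose took 0.939% to 1.19% of the counts of a day 22 library and 2.53% to 3.02% of those of a day 24 library.

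The genes that rose started from a wide range of levels. Their median level was 2.23 CPM at day 22 and 12.2 CPM at day 24, and 376 of them had a day 22 mean under 1 CPM. In 120 every day 22 library held 3 counts or fewer, and 20 had no count at all at day 22. With those 120 genes set to the lower bound that 3 counts per library allow, the median rise was 2.12 on the log2 scale. Among the 2438 genes that already exceeded 100 CPM at day 22, 12 rose. The number of calls rested on the libraries used: it was 171 without WT_d24_1, 526 without WT_d24_2, 490 without WT_d22_2, 518 without WT_d22_3, 529 without WT_d22_4 and 4 without both libraries high in *Crisp1*, a fit that leaves 1 library at day 24. In that last fit 1013 of the 1017 genes kept their direction, and the median rise was 2.33. Choosing the genes with the same libraries that remain in that fit favours both values.

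**Figure D1:**
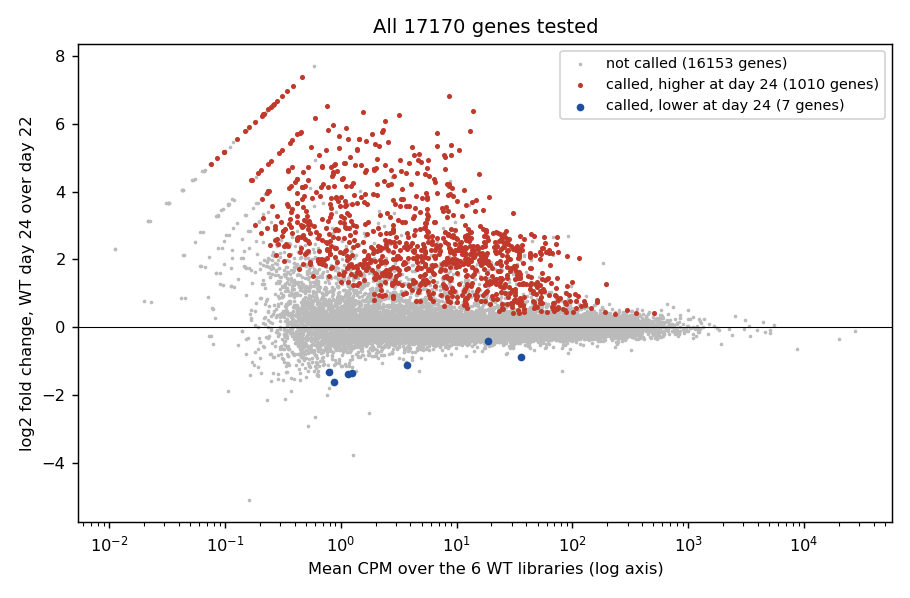
Mean level over the 6 WT libraries in CPM (horizontal, log axis) against the log2 fold change of day 24 over day 22 (vertical) for the 17170 genes tested, 1 point a gene. The 1010 genes called higher fan out above 0, mostly at low and middle levels, the 7 called lower lie between -0.41 and -1.63, and genes of high level stay near 0.

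The protamine and transition protein genes, nearly silent at day 22, rose by more than 5 on the log2 scale. Of 23 tested genes in this list, 12 rose, 0 fell and 11 were not called, with a median log2 fold change of 1.12. The 12 became 3 without WT_d24_1, 6 without WT_d24_2 or WT_d22_4, 5 without WT_d22_2, 7 without WT_d22_3 and 7 with DESeq2. *Prm1*, which encodes protamine 1, stood at 1.13, 0.167, 0.349 and 0.307 CPM in the 4 day 22 libraries and at 34.4 and 47.1 CPM in the 2 day 24 libraries. The ranges were far apart, with a difference of 6.38 ± 1.35 on the log2 scale (estimate ± SE, adjusted p = 0.00965). *Prm2*, encoding protamine 2, went from 0.167 to 0.634 CPM at day 22 to 14.3 and 24.8 CPM at day 24 (log2 fold change 5.34 ± 1.28, adjusted p = 0.0181). The transition protein genes rose in parallel. *Tnp1* lay between 0.334 and 1.13 CPM at day 22 and at 23.6 and 20.2 CPM at day 24 (log2 fold change 5.08 ± 1.17, adjusted p = 0.0143). *Tnp2* lay between 0.418 and 1.34 CPM at day 22 and at 25.8 and 33.9 CPM at day 24 (log2 fold change 5.24 ± 1.16, adjusted p = 0.0118). At each of these 4 genes WT_d22_1 held the highest day 22 level, still more than an order of magnitude under the day 24 libraries.

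*Prm1*, *Prm2*, *Prm3* and *Tnp2* are neighbours on the minus strand of chromosome 16 in mm10, at chr16:10796326-10805839, chr16:10791380-10796134, chr16:10790505-10790914 and chr16:10787936-10788660, whereas *Tnp1* lies alone at chr1:73015074-73015909. *Prm3*, whose product is acidic and not a DNA-packaging protamine, rose less than its neighbours, from 0.614 to 1.97 CPM at day 22 to 7.20 and 4.82 CPM at day 24 (log2 fold change 2.51 ± 0.72, adjusted p = 0.0443). The 250 bases upstream of the RefSeq start of *Prm1*, *Prm2*, *Tnp1* and *Tnp2* are shown because these genes encode the packaging proteins of the sperm genome and moved together from near 0. They are read 5′ to 3′ on the minus strand, from build GRCm38.p6, at chr16:10796824-10797073 for *Prm1*, chr16:10792106-10792355 for *Prm2*, chr1:73015900-73016149 for *Tnp1* and chr16:10788656-10788905 for *Tnp2*. Capitals mark each match, on either strand, to TGANNTCA, which spans the CREM response element TGACGTCA and its relatives, or to TATAA, the core of a TATA box.
Prm1: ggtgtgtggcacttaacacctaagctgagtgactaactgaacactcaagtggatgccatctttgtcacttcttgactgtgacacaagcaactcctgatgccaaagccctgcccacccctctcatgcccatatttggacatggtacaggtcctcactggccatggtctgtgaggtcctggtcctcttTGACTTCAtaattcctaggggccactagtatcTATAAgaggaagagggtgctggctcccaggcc
Prm2: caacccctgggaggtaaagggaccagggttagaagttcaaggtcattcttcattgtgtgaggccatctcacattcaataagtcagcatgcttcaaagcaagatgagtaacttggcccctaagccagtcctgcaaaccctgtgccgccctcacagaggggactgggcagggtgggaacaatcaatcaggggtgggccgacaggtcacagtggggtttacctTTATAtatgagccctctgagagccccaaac
Tnp1: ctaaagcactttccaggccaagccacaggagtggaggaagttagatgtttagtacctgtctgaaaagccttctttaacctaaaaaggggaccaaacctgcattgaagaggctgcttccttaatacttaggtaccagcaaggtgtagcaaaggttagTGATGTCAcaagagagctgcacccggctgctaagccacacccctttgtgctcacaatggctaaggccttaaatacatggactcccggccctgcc
Tnp2: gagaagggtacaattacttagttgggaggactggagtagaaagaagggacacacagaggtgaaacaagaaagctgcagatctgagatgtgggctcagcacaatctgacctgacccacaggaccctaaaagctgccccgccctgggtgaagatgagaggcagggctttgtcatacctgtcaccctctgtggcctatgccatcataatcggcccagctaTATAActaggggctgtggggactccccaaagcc

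In *Prm1* the letters TGACTTCA begin at position -64 and TATAA at -32, counted back from the start site, and in *Tnp1* TGATGTCA begins at -94. The windows of *Prm2* and *Tnp2* held TATAA at -30, on the other strand, and at -33, and no TGANNTCA. The windows of *H1fnt* and *Spem1*, which also rose from near 0, held neither pattern. The pattern was chosen after these sequences had been seen. Over all genes that rose and had an entry under their symbol in the promoter table, 206 of 744 windows (27.7%) held TGANNTCA, against 1335 of 12861 windows (10.4%) of the genes tested and 3919 of 32851 windows (11.9%) in the table. Among the 104 genes with an entry that rose by more than 4 on the log2 scale the share was 38.5%. The exact palindrome TGACGTCA, which is one form of the longer pattern, was found in 2.02% of the windows of genes that rose and in 2.45% of those tested. The letters TATAA on either strand were in 21.2% and 13.9%, and GTTGCC, the half-site bound by RFX factors, in 16.9% and 11.2%. The windows of genes that rose were also poorer in CG dinucleotides, with a median of 3 against 14 over the genes tested and 6 over the table, and their median GC content was 50.6% against 58.4% and 52.4%.

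The list also held linker histone and histone variant genes of spermatids. *H1fnt*, a linker histone of spermatids, lay between 0.585 and 1.48 CPM at day 22 and at 24.2 and 20.3 CPM at day 24 (log2 fold change 4.67 ± 0.83, adjusted p = 0.00461). The X-linked histone H2A variant gene *H2afb1* went from 0.0836 to 0.282 CPM to 7.07 and 5.23 CPM (5.34 ± 0.99 on the log2 scale, adjusted p = 0.00429). *Hils1*, a linker histone-like gene, was already at 5.18 to 9.86 CPM and rose to 46.0 and 38.1 CPM (2.59 ± 0.68, adjusted p = 0.0289). Among the regulators of the exchange, *Chd5*, a chromatin remodeller, rose from 21.7 to 37.5 CPM to 157 and 107 CPM. *Nutm1*, which recruits histone acetyltransferase activity, rose from 16.6 to 26.7 CPM to 58.1 and 40.8 CPM. *Psme4*, the proteasome activator of histone degradation, lay at 473 to 581 CPM and then at 723 and 650 CPM without passing the threshold (adjusted p = 0.0945).

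Most markers of spermatids rose, and some genes stand in several of the lists. Of 20 tested markers of elongating spermatids, 18 rose and 0 fell, with a median log2 fold change of 2.72, and of 20 tested markers of round spermatids 16 rose and 0 fell, with a median of 2.04. Both day 24 libraries lay above all of day 22 in 20 of the elongating and 19 of the round spermatid markers. The calls fell, for elongating and round spermatid markers in turn, to 4 and 2 without WT_d24_1, 5 and 4 without WT_d24_2, 7 and 2 without WT_d22_2, 10 and 5 without WT_d22_3, and 9 and 4 without WT_d22_4. DESeq2 called 11 and 10, the replicate number as a block gave 11 and 4, and without WT_d20_2 the counts were 17 and 8. *Cabs1*, a calcium-binding protein gene of elongating spermatids, lay at 1.41, 0.0836, 0.291 and 0.614 CPM at day 22 and at 25.3 and 25.7 CPM at day 24 (log2 fold change 5.38 ± 0.997, adjusted p = 0.00432). *Spem1*, needed to shed spermatid cytoplasm, had 3 counts or fewer in every day 22 library and 6.70 and 7.40 CPM at day 24, at least 35.7-fold higher than that floor. *Spata3* rose from 0.167 to 1.20 CPM to 17.9 and 13.2 CPM and *Fam71b* from 0 to 0.352 CPM to 5.46 and 7.61 CPM. *Spata25* (3.84 ± 0.64 on the log2 scale, adjusted p = 0.00305) and *Cst13* (5.24 ± 1.12, adjusted p = 0.00917) were the round spermatid markers with the largest fitted rises, from at most 6 and 5 counts in a day 22 library. These genes were nearly absent at day 22, unlike markers that had already begun.

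Other markers stood well above the floor at day 22. *Acrv1*, an acrosomal vesicle protein gene and a standard round spermatid marker, lay at 27.0, 20.4, 22.9 and 19.8 CPM at day 22 and at 117 and 80.6 CPM at day 24 (log2 fold change 2.13 ± 0.60, adjusted p = 0.0400). *Oaz3*, the spermatid antizyme, rose from 10.8 to 23.9 CPM to 112 and 90.1 CPM, and *Sun5*, which joins head and tail, from 5.63 to 9.30 CPM to 45.3 and 30.7 CPM. Of 16 settings of the fit, the main one included, *Acrv1* and *Sun5* were each called in 5 and *Oaz3* in 10. *Klhl10*, a ubiquitin ligase adaptor, rose from 18.2 to 34.8 CPM to 124 and 86.2 CPM. Of the markers that were not called, *Smcp*, a mitochondrial capsule gene, went from 11.9 to 40.1 CPM to 190 and 122 CPM (adjusted p = 0.0564), and *Hook1*, a microtubule linker, was abundant at both days with 239 to 259 CPM and then 300.4 and 276 CPM.

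**Figure D2:**
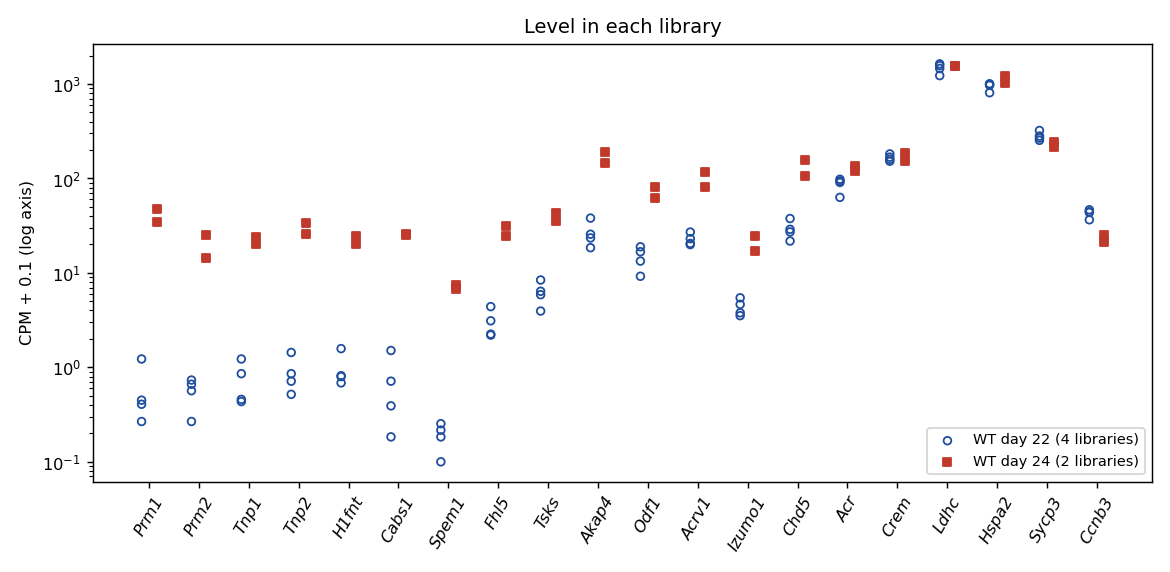
Level of 20 genes in each WT library, as CPM plus 0.1 on a log axis, with open circles for the 4 day 22 libraries and filled squares for the 2 day 24 libraries. *Prm1* to *Spem1* start under 2 CPM and *Akap4*, *Odf1* and *Acrv1* start between 9 and 38 CPM, with no overlap between the days, while *Crem* and *Ldhc* overlap and *Ccnb3* lies lower at day 24.

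The acrosome list also held many genes that rose. Of 36 tested members 17 rose, 0 fell and 19 were not called, with a median log2 fold change of 1.83. In 27 of the 36 both day 24 libraries lay above all of day 22. With the replicate number as a block 7 of the 36 were called. The 17 became 1 without WT_d24_1, 6 without WT_d24_2 or WT_d22_4, 5 without WT_d22_2 and 7 without WT_d22_3. *Ccin*, which encodes the head cytoskeleton protein calicin, rose most, from 0.669 to 1.97 CPM to 22.9 and 22.2 CPM (3.90 ± 0.71 on the log2 scale, adjusted p = 0.00390). *Izumo1*, whose product binds the egg receptor at fusion, rose from 3.43 to 5.35 CPM to 24.5 and 17.0 CPM (2.29 ± 0.47, adjusted p = 0.00734). The hyaluronidase gene *Spam1* rose from 14.1 to 20.5 CPM to 84.1 and 57.4 CPM, and *Spaca6*, also needed for fusion, from 1.38 to 2.32 CPM to 9.87 and 7.95 CPM. *Eqtn*, *Capza3*, *Actl7a*, *Izumo2* and *Spaca1* rose by between 1.83 and 2.48 on the log2 scale. *Acr*, the gene of the protease acrosin, was at 63.0 to 97.9 CPM at day 22 and 136 and 119 CPM at day 24 (0.56 ± 0.29, adjusted p = 0.470), and *Acrbp*, the acrosin-binding protein gene, was at 149 to 213 CPM and then at 273 and 233 CPM (0.42 ± 0.28, adjusted p = 0.665). In both the day 24 libraries lay above those of day 22, by less than the test could call.

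Genes of the sperm tail were described in 2 lists, and the difference between them was not tested. In the list of outer dense fibres and fibrous sheath, the sleeves around the axoneme, 13 of 26 tested genes rose and 0 fell, with a median of 1.80. In the list of the axoneme and of transport along it, 4 of 43 rose and 0 fell, with a median of 0.20. Over all genes tested 5.88% rose. Both day 24 libraries lay above all of day 22 in 23 of the 26 and 17 of the 43, against 18.3% of all genes tested. The 13 and 4 calls became 0 and 0 without WT_d24_1, 1 and 0 without WT_d24_2, 2 and 0 without WT_d22_2, and 2 and 1 without WT_d22_3 or WT_d22_4. With the replicate number as a block the counts were 5 and 1, and the 4 axoneme calls were 2 without WT_d20_2. *Akap4*, the main fibrous sheath anchor for protein kinase A, lay at 38, 18.4, 25.6 and 23.4 CPM at day 22 and at 188 and 146 CPM at day 24 (log2 fold change 2.67 ± 0.70, adjusted p = 0.0278). *Akap3*, its partner, went from 38.7 to 71.2 CPM to 262 and 199 CPM, and *Odf1*, an outer dense fibre gene, from 9.11 to 18.8 CPM to 81.1 and 62.2 CPM (2.31 ± 0.58, adjusted p = 0.0226). *Odf3* rose from 2.26 to 4.16 CPM to 25.8 and 19.8 CPM (2.88 ± 0.63, adjusted p = 0.0103), and *Gapdhs*, the sperm glyceraldehyde-3-phosphate dehydrogenase of the sheath, from 7.36 to 17.8 CPM to 89.7 and 71.2 CPM (2.69 ± 0.65, adjusted p = 0.0170). *Cabyr*, *Ropn1* and *Fscb*, all of the fibrous sheath, rose by between 2.23 and 2.52 on the log2 scale. *Odf2*, the scaffold of the fibres, was not called, with 480 to 691 CPM and then 1058 and 857 CPM.

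The 4 genes of the axoneme list that rose were *Ccdc63* (1.97 on the log2 scale, adjusted p = 0.0400), the tektin genes *Tekt5* (1.14, adjusted p = 0.0217) and *Tekt2* (0.95, adjusted p = 0.0291) and *Ttll9*, a tubulin polyglutamylase gene (1.02, adjusted p = 0.0132). *Tekt2* went from 65.1 to 86.6 CPM to 156 and 122 CPM. *Spag6l*, of the central pair, went from 19.1 to 33.9 CPM to 86.2 and 60.1 CPM and was not called (adjusted p = 0.0870). Among 22 sperm ion channel and transporter genes 6 rose and 0 fell, with a median of 0.15, while 3 were called by DESeq2 and 0 to 3 were called on leaving out 1 of WT_d24_1, WT_d24_2, WT_d22_2, WT_d22_3 or WT_d22_4. The share that rose over all genes tested was 5.88%. *Atp1a4*, the sperm sodium pump subunit, rose most in this list, from 4.68 to 11.8 CPM to 86.3 and 67.5 CPM (3.38 ± 0.72, adjusted p = 0.00955). The pore subunits *Catsper3* and *Catsper4* of the sperm calcium channel rose by 2.27 and 2.10 on the log2 scale, as did its regulator *Efcab9* by 1.83, and the potassium channel gene *Kcnu1* and its partner *Lrrc52* rose by 1.41 and 2.79. *Catsper1* had a similar difference, 2.09 ± 0.65, with an adjusted p of 0.0695.

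All 7 tested genes of the testis-specific serine kinase list rose, with a median log2 fold change of 2.51. These kinases act in spermatids and *Tsks* encodes their substrate. *Tsks* lay at 8.31, 3.85, 6.29 and 5.78 CPM at day 22 and at 43.4 and 35.1 CPM at day 24 (log2 fold change 2.69 ± 0.52, adjusted p = 0.00535). *Tssk6* started lowest, at 0.334 to 0.563 CPM, and reached 3.16 and 4.76 CPM (3.04 ± 0.65, adjusted p = 0.00846). *Tssk1* started highest among the kinases, at 12.3 to 21.3 CPM, and reached 64.8 and 52.0 CPM (1.75 ± 0.49, adjusted p = 0.0385). *Tssk2*, *Tssk3*, *Tssk4* and *Tssk5* rose by 2.53, 1.84, 1.82 and 2.51 on the log2 scale. In none of the 7 did the libraries of the days overlap. The calls became 1 without WT_d24_1, 2 without WT_d24_2, 3 without WT_d22_2, WT_d22_3 or WT_d22_4, 4 without WT_d22_1 and 3 with the replicate number as a block.

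Of 19 transcription regulators of meiosis and spermatids 4 rose and 0 fell, with a median of 0.27, and 1 or 2 were called on leaving out 1 of WT_d24_1, WT_d24_2, WT_d22_2, WT_d22_3 or WT_d22_4. *Crem*, the activator of many post-meiotic genes, was level, at 182, 160, 168 and 152 CPM at day 22 and 184 and 154 CPM at day 24 (log2 fold change 0.03 ± 0.18, adjusted p = 0.986). *Fhl5*, which encodes ACT, the testis coactivator of CREM, lay at 4.30, 3.01, 2.10 and 2.15 CPM at day 22 and at 31.3 and 24.4 CPM at day 24 (3.28 ± 0.59, adjusted p = 0.00389). *Kif17*, the kinesin that carries ACT, was the single gene of 23 in the piRNA pathway list to rise, from 11.4 to 25.8 CPM to 108 and 68.8 CPM (2.08 ± 0.49, adjusted p = 0.0158), a call lost without WT_d22_2, WT_d22_4 or WT_d24_1. It was placed in that list for its part in RNA granules, and *Piwil1*, the main PIWI protein gene of spermatocytes and spermatids, was at 398 to 465 CPM and at 543 and 452 CPM (adjusted p = 0.899). *Spz1* rose by 2.34, *Sox5* by 1.45 and *Rfx1* by 1.27 on the log2 scale, and *Sox30*, a regulator of round spermatid genes, was at 66.4 to 85.0 CPM and then at 134 and 105 CPM without a call (adjusted p = 0.248).

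Some genes of energy supply rose. Of 19 germ cell glycolysis and energy genes 3 rose, where 5.88% of all genes tested did, and 0 fell. The 3 were *Gapdhs*, *Hk1* and *Aldoart2*. Against 18.3% of all genes tested, both day 24 libraries lay above all of day 22 in 10 of the 19. None was called on leaving out 1 of WT_d24_1, WT_d24_2, WT_d22_2, WT_d22_3 or WT_d22_4. *Hk1*, the hexokinase gene with sperm-specific transcripts, went from 88.5 to 149 CPM to 362 and 275 CPM (1.28 ± 0.34, adjusted p = 0.0291), and *Aldoart2*, an aldolase retrogene, from 9.53 to 18.4 CPM to 59.9 and 44.4 CPM. *Ldhc*, the testis lactate dehydrogenase, was at 1227 to 1633 CPM and then at 1570 and 1551 CPM (0.09 ± 0.19, adjusted p = 0.955), with overlapping libraries. *Pgk2*, the testis phosphoglycerate kinase, was at 167 to 213 CPM and at 289 and 265 CPM (0.52 ± 0.21, adjusted p = 0.205).

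By gain in level the leading genes called were *Ipo5*, *Akap3*, *Akap4*, *Hk1* and *Spata20*. *Ipo5*, a nuclear import receptor, rose from 424 to 471 CPM to 655 and 570 CPM, a small fold change on a high level (0.43 ± 0.12, adjusted p = 0.0351). *Spata20* rose from 23.9 to 53.4 CPM to 207 and 163 CPM. Of 16 settings of the fit, the main one included, *Ipo5* and *Akap3* were called in 7, *Akap4* in 9 and *Hk1* and *Spata20* in 10. By fold change, among called genes of at least 5 CPM on average whose libraries did not overlap between the days, the leaders beside the protamine and transition protein genes, *H1fnt*, *Cabs1* and *Spata3* were *4930407I10Rik* (5.09 ± 0.98, adjusted p = 0.00496), *Sppl2c* (5.01 ± 0.88, adjusted p = 0.00352) and *Trim80* (4.94 ± 0.83, adjusted p = 0.00308). *Sppl2c*, a spermatid intramembrane protease gene, went from 0.233 to 1.55 CPM to 23.9 and 21.3 CPM.

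**Figure D3:**
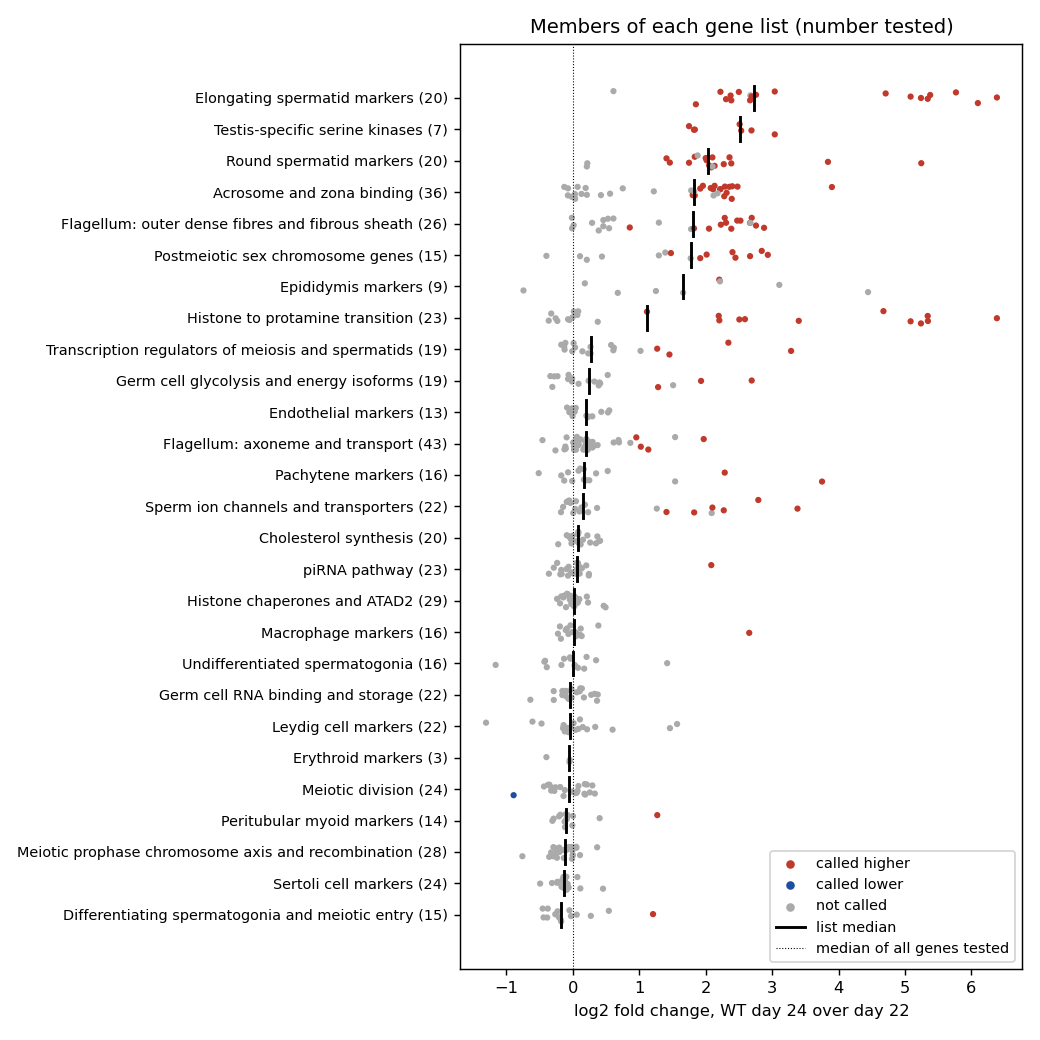
log2 fold change of day 24 over day 22 for each tested member of 27 gene lists, 1 point a gene, with the list median as a black bar and the median of all genes tested as a dotted line. Spermatid, kinase, acrosome and fibrous sheath lists lie to the right, with medians of 1.80 to 2.72, while the meiotic and testicular somatic lists centre near 0 and the epididymis list has a median of 1.66.

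In the lists of meiotic prophase, meiotic divisions and pachytene markers 0 of 28, 1 of 24 and 2 of 16 genes were called, where 5.92% of all genes tested were. Of 28 tested genes of the meiotic chromosome axis and recombination none was called in either direction and the median was -0.12. The log2 fold change was negative in 23 of the 28, against 8457 of the 17170 genes tested. In 5 of the 28 both day 24 libraries lay below all of day 22, and in 0 above. *Sycp2* of the axis was at 1189 to 1407 CPM and then at 1270 and 1041 CPM. *Sycp3* was at 281, 322, 267 and 253 CPM at day 22 and at 244 and 214 CPM at day 24 (log2 fold change -0.29 ± 0.19, adjusted p = 0.657). Of 24 genes of the meiotic divisions 1 fell and 0 rose, with a median of -0.07. In 10 of the 24 both day 24 libraries lay below all of day 22, and in 2 above. Over all genes tested these orders held for 13.1% and 18.3%. The gene that fell is given next. That gene was *Ccnb3*, the cyclin B3 of meiosis, at 36.4, 43.7, 44.3 and 46.5 CPM at day 22 and at 24.9 and 21.1 CPM at day 24 (-0.89 ± 0.25, adjusted p = 0.0370). It was not called on the 12 WT libraries or on leaving out 1 of WT_d24_1, WT_d24_2, WT_d22_2, WT_d22_3 or WT_d22_4. *Ccna1*, the cyclin A1 needed to enter the divisions, overlapped between the days at 105 to 137 CPM and at 125 and 118 CPM.

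Of 16 pachytene markers 2 rose and 0 fell, with a median of 0.17, and 1 was called without WT_d24_1 or without WT_d24_2. *Hspa2*, the chaperone of pachytene spermatocytes, was at 808 to 1004 CPM and at 1214 and 1027 CPM (adjusted p = 0.872). The 2 that rose were *Hspa1l*, a heat shock protein gene also transcribed in spermatids, from 1.59 to 4.58 CPM to 40.5 and 36.7 CPM (3.75 ± 0.62, adjusted p = 0.00308), and *Calr3*, a testis calreticulin, by 2.29 ± 0.50 (adjusted p = 0.00965). Of 29 genes of histone chaperones and *Atad2* none was called, with a median of 0.02. *Atad2* lay at 93.2, 91.8, 78.2 and 76.1 CPM at day 22 and at 132 and 106 CPM at day 24, without overlap (0.49 ± 0.21, adjusted p = 0.287). *Nasp*, the member with the highest mean over the 6 libraries, was at 470.2 to 577 CPM and at 666 and 570.5 CPM, and *Chaf1a*, of the replication-coupled chaperone, at 71.1 to 96.9 CPM and at 132 and 114 CPM. In the germ cell RNA-binding list none of 22 was called, with a median of -0.04, and *Ybx2*, which stores spermatid mRNAs, was at 610.4 to 936 CPM and at 983 and 799.5 CPM.

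The other 6 genes that fell were expressed at low levels, apart from *Mob2*. *Mob2*, a kinase activator gene, went from 19.1 to 22.3 CPM to 15.2 and 15.6 CPM (-0.41 ± 0.12, adjusted p = 0.0433), and *Zfp296*, a zinc finger gene, from 3.63 to 5.70 CPM to 2.05 and 2.17 CPM (-1.11 ± 0.24, adjusted p = 0.00894). *Psg17*, *Psd2*, *Dlx1* and *Gm15545* lay between 0.665 and 1.84 CPM at day 22 and between 0.248 and 0.679 CPM at day 24. In all 7 genes the libraries of the days did not overlap.

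Lists of spermatogonia and somatic cells gave 0 or 1 call each, and lists of this size would hold about that many at the 5.92% over all genes tested. None of 16 markers of undifferentiated spermatogonia was called, with a median of 0.00, and *Zbtb16*, the stem cell factor PLZF, was at 20.8 to 24.9 CPM and at 21.7 and 23.7 CPM. *Foxo1* was at 43.6 to 54.5 CPM and at 47.0 and 45.2 CPM. Of 15 markers of differentiating spermatogonia and meiotic entry 1 rose and the median was -0.18, with *Kit* at 53.5 to 79.1 CPM and at 63.2 and 64.7 CPM. *Stra8*, the inducer of meiotic entry, was at 18.1 to 21.6 CPM and at 11.7 and 16.2 CPM (adjusted p = 0.540). The gene that rose was *Rec8*, a meiotic cohesin gene, from 10.0 to 20.0 CPM to 42.5 and 34.2 CPM (1.21 ± 0.27, adjusted p = 0.00963), a call lost without WT_d24_1.

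None of 24 Sertoli cell markers was called, with a median of -0.13, and their summed level was 2803 to 3305 CPM at day 22 and 2769 and 2687 CPM at day 24. The log2 fold change was negative in 21 of the 24, against 8457 of the 17170 genes tested. In 5 of the 24 both day 24 libraries lay below all of day 22, against 13.1% of all genes tested, and in 0 above. *Sox9* was at 58.4 to 82.8 CPM and at 74.0 and 59.5 CPM, *Amh*, the Müllerian inhibitor, at 6.13 to 7.36 CPM and at 7.69 and 7.20 CPM, and *Clu*, the most abundant, at 872 to 1115 CPM and at 883 and 811 CPM. *Fshr*, the follicle-stimulating hormone receptor gene, lay at 10.3 to 12.1 CPM and then at 8.44 and 7.34 CPM (-0.49 ± 0.21, adjusted p = 0.249). None of 22 Leydig cell markers was called, with a median of -0.05. *Cyp17a1*, of androgen synthesis, was at 234, 159.6, 141 and 142 CPM and at 105 and 243 CPM, and *Insl3* at 23.6 to 42.6 CPM and at 20.7 and 27.5 CPM, so in both the days overlapped. *Hsd3b1*, also of steroid synthesis, was at 190.1 to 220.4 CPM and at 202 and 187 CPM. *Star*, the cholesterol carrier of the mitochondrion, was at 52.8, 49.6, 230.2 and 72.5 CPM at day 22, highest in WT_d22_3, and at 38.4 and 43.5 CPM at day 24 (-1.31 ± 0.54, adjusted p = 0.25). Without WT_d22_3 the difference in *Star* was -0.51.

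Of 14 peritubular myoid markers 1 rose, with a median of -0.10. The alpha actin gene *Acta2* was at 293 to 403 CPM and at 281 and 310 CPM (-0.29 ± 0.24, adjusted p = 0.796), while *Actg2*, a smooth muscle gamma actin, rose from 10.4 to 17.3 CPM to 32.3 and 30.4 CPM (1.27 ± 0.34, adjusted p = 0.0278), a call lost on leaving out any 1 of the 6 libraries except WT_d22_4. Of 16 macrophage markers 1 rose, with a median of 0.01, and that gene was *Aif1*, from 2.43 to 6.06 CPM to 31.8 and 22.5 CPM (2.65 ± 0.60, adjusted p = 0.0120), a call lost without WT_d22_2 or WT_d24_1. None of 13 endothelial, 3 erythroid and 20 cholesterol synthesis genes was called. Their medians were 0.20, -0.05 and 0.08, and their most abundant members, *Cdh5*, *Alas2* and *Hmgcs1*, differed by 0.04, -0.05 and 0.22 on the log2 scale.

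The summed level of epididymal transcripts differed between libraries rather than between days, unlike that of the 1 member called. Of 9 tested members of the epididymis list 1 rose. That gene was *Ros1*, a receptor kinase gene of the epididymal epithelium, from 0.291 to 0.585 CPM to 2.23 and 2.11 CPM, in both day 24 libraries alike (2.20 ± 0.58, adjusted p = 0.0244), a call lost on leaving out any 1 of the 6 libraries except WT_d22_1. The WT means of *Ros1* were 0.0289 CPM at day 20 and 2.55 CPM at day 26. *Crisp1* was at 0, 0, 13.4 and 520.0 CPM at day 22 and at 0.124 and 636.6 CPM at day 24. The summed level of the list was 4.01, 7.94, 22.6 and 557 CPM at day 22 and 5.46 and 838 CPM at day 24. The 8 genes called higher whose libraries overlapped between the days were all at their highest in WT_d24_2. They were *AY761185* and *Defb23*, both defensin-like, *Spint5* and *Spink11*, both protease inhibitors, and *Npc2*, *Srgn*, *Ramp3* and *Faim2*. *Spint5* was at 0.815 to 1.55 CPM at day 22, 1.49 CPM in WT_d24_1 and 45.1 CPM in WT_d24_2, and *AY761185* at 0 CPM in WT_d24_1 and 76.1 CPM in WT_d24_2. *Defb30*, called without overlap, was at 0.409 to 0.920 CPM at day 22 and at 0.931 and 11.7 CPM at day 24. The part of epididymal RNA in these calls was not tested further, and the spermatid genes named above were high in both day 24 libraries.

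Genes that rose came from every chromosome. On the X chromosome 68 of 728 tested genes (9.34%) rose and 1 fell, on the Y chromosome 1 of 11 rose, and on the autosomes 935 of 16380 (5.71%) rose and 6 fell. The median log2 fold change was -0.01 on the X and 0.00 on the autosomes, so the X chromosome as a whole lay level while a subset of its genes rose. The median day 22 level was 8.31 CPM on the X and 17.95 CPM on the autosomes. The part of level in the shares of X and autosomal genes that rose was not tested. In the list of sex-linked genes known to be active after meiosis, 8 of 15 tested genes rose, with a median of 1.77, and 0 to 3 were called on leaving out 1 of WT_d24_1, WT_d24_2, WT_d22_2, WT_d22_3 or WT_d22_4. *Cypt3*, of a family of cysteine-rich spermatid proteins, rose from 0.767 to 2.25 CPM to 14.2 and 10.6 CPM (2.93 ± 0.60, adjusted p = 0.00685), and *Cypt1* and *Cypt2* by 2.40 and 2.45 on the log2 scale. *Actrt1*, an actin-related gene of the sperm head, rose by 2.01, *Tsga8* by 1.48 and *Ube2dnl1*, a ubiquitin-conjugating enzyme-like gene, by 2.84. With the replicate number as a block 2 of the 15 genes of this list were called. Read pairs that align to several places were discarded, so values for families of near-identical copies such as *Cypt* are uncertain.

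The genes that rose were short and often unnamed. Their median exon length was 2196 bases against 4044 over all genes tested, and 29.3% carried a provisional Gm or Rik name against 10.2%. Of 15802 tested protein-coding genes 810 (5.13%) rose, of 459 long intergenic non-coding genes 85 (18.5%) and of 306 antisense genes 58 (19.0%). The counting used the strand. The median day 22 levels of the non-coding classes were 1.33 and 1.46 CPM, against 20.3 CPM for protein-coding genes, and the part of level in these shares was not tested.

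The days around this interval place it in the course of the wave. The intervals share libraries, so their values are given side by side and only the fitted differences between them were tested. The 1010 genes took 0.540% to 0.703% of the counts at day 20 and 4.91% to 5.14% at day 26. *Prm1*, *Prm2*, *Tnp1* and *Tnp2* had means of 0.25, 0.115, 0.054 and 0.203 CPM at day 20. At day 22 their means were 0.488, 0.457, 0.644 and 0.782 CPM. Their fitted log2 changes from day 20 to 22 were 0.856, 1.8, 3.33 and 1.88, and none was called. At day 26 these genes were higher still than at day 24, with means of 665 CPM for *Prm1* and 335 CPM for *Tnp2*. *Acrv1* was at 0.863 CPM at day 20 and 164 CPM at day 26, and the difference between its changes of days 22 to 24 and days 20 to 22 did not pass the test (-2.51 on the log2 scale, adjusted p = 0.553). The median log2 change of the round spermatid list was 3.94 from day 20 to 22, 2.04 from day 22 to 24 and 0.73 from day 24 to 26, and that of the elongating spermatid list 3.23, 2.72 and 1.58.

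**Figure D4:**
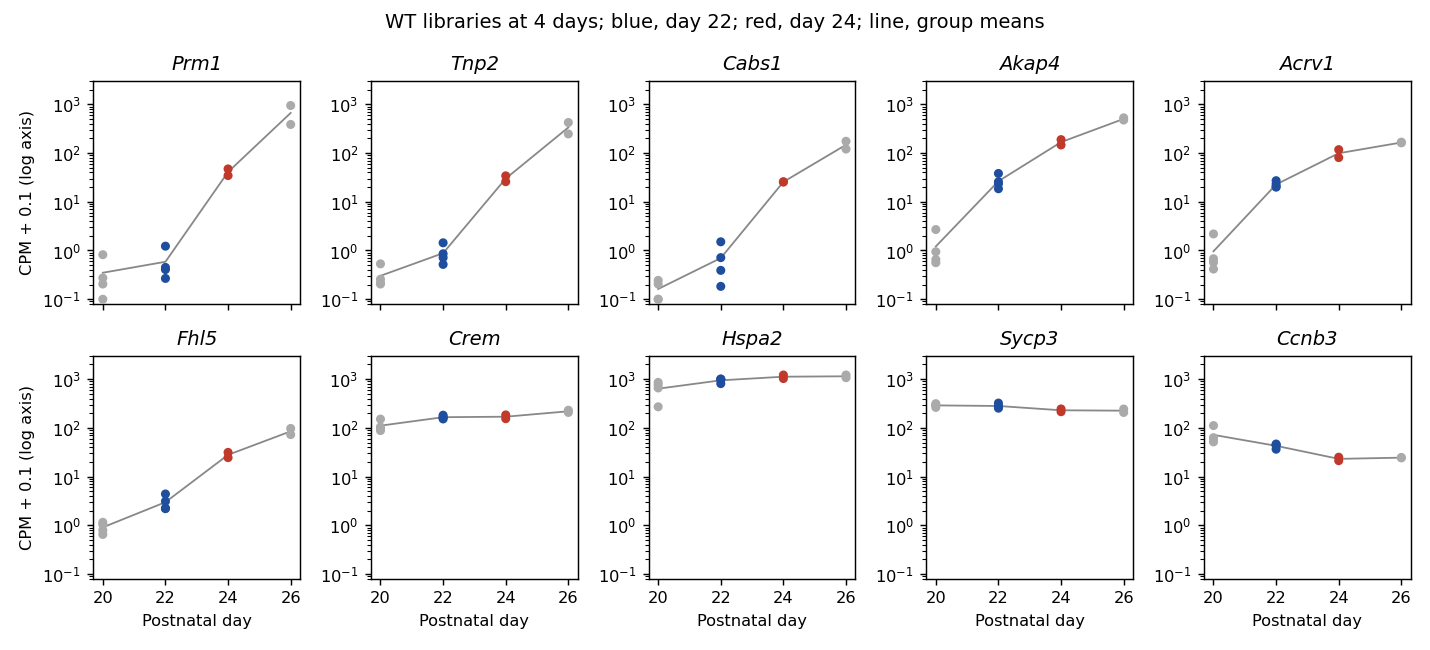
Level of 10 genes in each WT library of postnatal days 20, 22, 24 and 26, as CPM plus 0.1 on a log axis, with day 22 in blue, day 24 in red and a line through the group means. *Prm1*, *Tnp2* and *Cabs1* lie at 1.41 CPM or less up to day 22 and rise after it, and *Akap4* and *Acrv1* are under way by day 22. The means of *Crem* and *Hspa2* go from 111 and 636 CPM at day 20 to 219 and 1143 CPM at day 26, and that of *Ccnb3* from 71.7 to 24.4 CPM.

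Tests of the difference between intervals called almost nothing. Against the change from day 20 to 22, the change from day 22 to 24 differed in 1 gene of 17170 (0.00582%), *Gm6408*, whose mean was 0.276 CPM at day 20, 3.06 CPM at day 22 and 3.63 CPM at day 24, although 1443 genes had an unadjusted p under 0.05 and DESeq2 called 79. Against the change from day 24 to 26 it differed in 1 gene (0.00582%), *Spint5*, which was high in WT_d24_2 alone, with 484 genes at an unadjusted p under 0.05 and 2 called by DESeq2. The test of day 22 against day 20 called 2210 genes higher (12.9%) and 1227 lower (7.15%), and that of day 26 against day 24 called 45 higher (0.262%) and 2 lower (0.0116%). Days 24 and 26 have 2 libraries each and days 20 and 22 have 4, so these counts do not compare the size of the changes.

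The same interval in KO testis was measured in other libraries, and no gene passed the test of a difference between the KO and WT changes. Of the 1010 genes that rose in WT, 996 had a positive log2 fold change in KO, where 54.7% of all genes tested were positive. Their median was 0.95 in KO and 2.23 in WT, and in 989 the WT change was the larger, a direction that choosing the genes on the WT change favours. In KO 69 genes were called (0.402%), all higher, and 31 of them were called in WT, which is 44.9% of the KO calls and 3.05% of the WT calls. In KO *Prm1* was at 1.69, 65.3, 21.6 and 1.34 CPM at day 22 and at 443 and 147 CPM at day 24 (log2 fold change 3.71, adjusted p = 0.136, not called). *Akap4* was at 38.5, 193, 89.9 and 39.2 CPM and at 256 and 199.7 CPM (1.33, adjusted p = 0.617, not called). Both differed widely among the KO day 22 libraries, with KO_d22_2 the highest. The 1010 genes took 1.18% to 2.68% of the counts in the 4 KO libraries of day 22, a wider range than in WT, and 2.85% to 3.22% in those of day 24. The difference between the KO and WT changes passed the threshold in no gene with edgeR (0%) and in none with DESeq2, with 523 and 492 genes at an unadjusted p under 0.05.

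**Figure D5:**
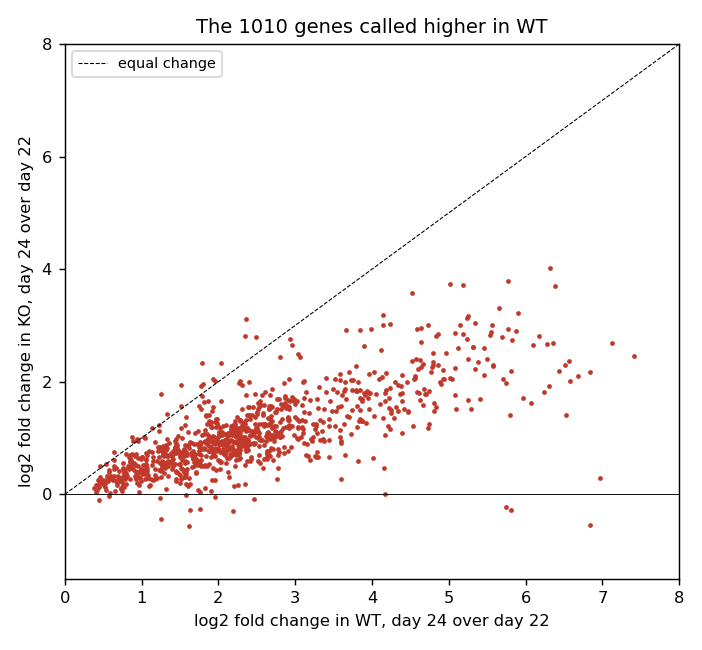
log2 fold change of day 24 over day 22 in WT (horizontal) and in KO (vertical) for the 1010 genes called higher in WT, 1 point a gene, with a dashed line of equal change. Most points lie above 0 and under the dashed line, with medians of 2.23 in WT and 0.95 in KO.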

How the data were processed

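Ribosome-depleted, strand-specific RNA of whole testis was sequenced as read pairs. Per the submitters’ processing notes and the study’s methods, the authors aligned to mm10 with STAR 2.7.11b, counted exonic pairs per gene with HTSeq, by strand and without pairs of several alignments, and deposited raw counts, 1 table per library. The version of the gene models is not given in the sources used here. Tallies of unassigned pairs were left out: 47.3% to 51.6% of pairs overlapped no exon in the counted way, 8.26% to 9.16% had several alignments and 0.179% to 0.194% were ambiguous. Groups came from the labels, which give 4 day 20 libraries per genotype, more than the study’s text states, and all were used. Genes were placed with GENCODE M21 and RefSeq, and 24326 of 24456 matched.

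Differences in counts were fitted in edgeR 4.0.16 (quasi-likelihood test; R 4.3.3, limma 3.58.1) as 1 robust fit over all 24 libraries with 8 groups, TMM scaling and filterByExpr at a minimum count of 10, two-sided, adjusted by Benjamini-Hochberg over 17170 genes. The same code was checked on simulated data. Promoter windows came from RefSeq. Genes were named by rule: the 10 largest called changes each way at 5 CPM or more without overlap, up to 3 called members per list and direction or else the most abundant, the 5 largest gains and losses in CPM, up to 5 of each difference contrast, and a set of landmark genes. Others are named as list members, or were chosen after their values were seen. The comparison and the lists were chosen with earlier results of these data known. With 2 libraries against 4, a permutation test of 1 gene could not go below 0.0667, so none was used. DESeq2 1.42.0, other scalings and filters, subsets of libraries and the replicate number as a block were alternatives. The ± values are approximate standard errors, the absolute log2 fold change divided by the square root of the quasi-likelihood F statistic. They include the spread between libraries as that test estimates it, whereas floors cover counting error only.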

Additional observations from a re-analysis of the deposited data

Results flagged for a closer look

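In 140 groups of 4 day 22 values, of named genes and of summed marker lists, 11 held a library far from the others, and chance flags about 1 in 20. WT_d22_1 stood high in late spermatid genes: *H1fnt* at 1.48 CPM, *H2afb1* at 0.282 CPM, and *Fam71b* and *Cst13* at 0.352 CPM each, all far under both day 24 libraries. WT_d22_2 stood low in *Hk1* at 88.5 CPM and in *Chaf1a* at 71.1 CPM. WT_d22_3 stood high in *Star* at 230.2 CPM and in *Stra8* at 21.6 CPM. WT_d22_4 stood high in *Crisp1* at 520.0 CPM, in *AY761185* at 2.20 CPM and in the summed epididymis list at 557 CPM. *Star* was also lower in both day 24 libraries than in all day 22 libraries in WT, by -1.31 on the log2 scale, and higher in both in KO, a difference between genotypes that passed no threshold. The WT value of *Star* was -0.51 without WT_d22_3. Between neighbouring intervals the fitted log2 difference was -3.15 for *Gm6408*, days 22 to 24 minus days 20 to 22, and -8.57 for *Spint5*, days 24 to 26 minus days 22 to 24. The *Spint5* value rests on WT_d24_2.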

How the results depend on the processing

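The 1017 calls of day 24 against day 22 became 657 with a replicate block, 1561 on the 6 libraries alone, 344 at an adjusted p under 0.01, and 4 without the 2 libraries high in *Crisp1*, an alternative chosen after seeing the data. Leaving out single libraries, WT_d20 replicate 2 included, gave 171 to 925. DESeq2, other size factors, both filters and the 12 WT libraries gave 910 to 1175. The replicate numbers were not shown to pair libraries: same-numbered libraries deviated together with r = 0.40 for number 1 and -0.10 for number 2. KO minus WT gave 0 genes with DESeq2, other size factors, both filters and the replicate block, and 0 to 1 over left-out libraries, the 1 without WT_d24 replicate 1. The comparison with days 20 to 22 gave 79 with DESeq2, 20 on the 12 WT libraries, 7 with the replicate block, 0 at a minimum count of 50, and 0 to 38 over left-out libraries. The comparison with days 24 to 26 gave 2 with DESeq2, 0 on the 12 WT libraries, 0 with the replicate block, 0 at a minimum count of 50, and 0 to 17 over left-out libraries. The causes were not tested.

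Among named genes, changes of sign were limited to genes not called and *AY761185*. With the replicate block *Crem* was -0.092 and *Ldhc* -0.036. Over left-out libraries the log2 fold change ran from -0.10 to 0.13 for *Crem*, -0.028 to 0.14 for *Ldhc*, -0.026 to 0.14 for *Ccna1*, -0.065 to 0.091 for *Zbtb16*, -0.0020 to 0.17 for *Kit*, -0.71 to 0.52 for *Cyp17a1*, -10.01 to 6.07 for *Crisp1*, -6.34 to 8.95 for *AY761185*, -0.13 to 0.18 for *Cdh5* and -0.22 to 0.31 for *Alas2*. Without both libraries high in *Crisp1*, *Zbtb16* was -0.0036, *Sox9* 0.022, *Cyp17a1* -0.79, *Crisp1* -5.18, *AY761185* -3.20 and *Cdh5* -0.11. The range of log2 fold changes over all settings was 5.91 to 7.11 for *Prm1*, 2.47 to 2.89 for *Akap4*, 1.84 to 2.37 for *Acrv1* and -1.04 to -0.76 for *Ccnb3*. Of the 16 settings, the main fit included, *Prm1* was called in 14, *Akap4* and *Ccnb3* in 9 and *Acrv1* in 5. *Prm2* was called in 8, and *Spam1*, *Sun5* and *Catsper4* in 5 each. Genes with at most 3 counts in every day 22 library are given as bounds. Fitted changes of genes just above that floor moved with the setting, as for *Cst13* from 4.43 to 7.11. Without both libraries high in *Crisp1* no member of the 27 lists was called.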

Other observations

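Gene families beside the lists were picked out after the values had been seen and are described without a test. All 5 tested *Iqcf* genes, all 7 *Fam71* genes, 6 of 7 *Cypt* genes and 4 of 5 *Spata31* genes rose, with medians of 3.44, 2.37, 2.81 and 4.53 on the log2 scale. *Spata31d1d* went from 0.874 to 2.96 CPM to 50.4 and 36.3 CPM (4.53 ± 0.75, edgeR adjusted p = 0.00308). Of 32 *Adam* genes, which encode membrane metalloprotease-like proteins, 10 rose and the median was 0.22. Of 13 *Ttll* tubulin-modifying genes 5 rose and of 13 *Dnajb* chaperone genes 5, where 5.88% of all genes tested rose. Other families gave 5 of 78 for *Rnf*, 5 of 52 for *Trim*, 2 of 36 for *Ube2*, 2 of 32 for *Klhl* and 0 of 11 for *Dnah*. Read pairs with several alignments were discarded, so values within families of near-identical copies are uncertain.

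Single genes outside the lists rose as well. *Asb17*, a testis ubiquitin ligase adaptor gene, went from 0.408 to 0.916 CPM to 16.8 and 12.6 CPM (4.52 ± 0.77, edgeR adjusted p = 0.00317). *Kif2b*, a kinesin gene at 19.2 to 39.1 CPM on day 22, reached 181 and 136 CPM (2.44 ± 0.63, edgeR adjusted p = 0.0255).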
